A study of Mus musculus with 18 samples.

Results

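The kinetochore is the protein assembly that joins each chromosome to spindle microtubules, and the spindle checkpoint is the signal that holds the cell in mitosis until every kinetochore is attached. The 42 genes described here encode parts of both, from the centromere outward to the enzymes that open anaphase. They were listed by name, and every probe set whose only platform gene symbol is a listed gene or a current synonym of it was taken. All 42 had a probe set, 81 probe sets among 45037 in the table, and 23 of the genes had several. Casc5, Sgol1 and Sgol2 are given under their current symbols Knl1, Sgo1 and Sgo2a.

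RNA was measured on 18 one-colour Affymetrix arrays, 1 for each of 18 tumours. The tumours grew in the skin of nude mice from iNRAS-475, a single mouse melanoma cell line with a doxycycline-dependent NRAS oncogene. All mice drank water with 2 mg/ml doxycycline while the tumours reached 200 to 500 mm3 over 6 weeks. The vehicle group (labelled vehicle) had 6 tumours treated with vehicle. The NRAS-off group (labelled -NRAS) had 6 tumours taken 4 days after doxycycline was withdrawn, and the MEK inhibitor group (labelled MEKi) had 6 tumours treated for 4 days with 100 mg/kg AZD6244, an inhibitor of the kinases MEK1 and MEK2 below RAS. Ages, the host's sex and the promoter that drives the oncogene are not given in the sources used here. Doxycycline was withdrawn in the NRAS-off group only, so an effect of the drug and loss of the oncogene cannot be told apart. Each sample was a distinct tumour, so the replicates are biological.

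CENP-A, a variant of histone H3, marks the centromere, and a constitutive network of CENP proteins sits on it. That network carries the KNL1, MIS12 and NDC80 complexes, of which NDC80 grips the microtubule, helped by the SKA complex. Unattached kinetochores recruit BUB and MAD proteins, which together restrain CDC20, the activator of the anaphase-promoting complex. Once CDC20 is free, securin (Pttg1) is destroyed and separase (Espl1) cuts cohesin. Many of these genes are transcribed mainly in late S phase, G2 and mitosis, and their RNA is therefore a usual marker of cycling cells. In many such genes repression in resting cells runs through a short element near the start, the CHR, often with CCAAT boxes nearby.

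Promoters are shown for the members with the largest falls after NRAS was switched off and for Zwint and Cenpb, which differed from the other members and were chosen after their values were seen. Each is the RefSeq GRCm38.p6 window from 250 bases before to 50 after the start, on the strand of the gene. Capitals mark CCAAT, the CHR-like letters (TTTGAA, or alternatively TTTAAA, or alternatively TTCGAA), and the E2F-like letters (TTTCCCGC, or alternatively TTTGGCGC), each searched on both strands.
Bub1 (chr2:127831810-127832109, minus strand): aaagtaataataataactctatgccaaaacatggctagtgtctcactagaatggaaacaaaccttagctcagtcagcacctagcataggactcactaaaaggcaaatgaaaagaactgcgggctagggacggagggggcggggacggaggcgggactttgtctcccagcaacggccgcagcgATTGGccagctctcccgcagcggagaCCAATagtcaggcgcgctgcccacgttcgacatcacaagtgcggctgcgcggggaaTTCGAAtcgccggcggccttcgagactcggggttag
Sgo2a (chr1:57985090-57985389, plus strand): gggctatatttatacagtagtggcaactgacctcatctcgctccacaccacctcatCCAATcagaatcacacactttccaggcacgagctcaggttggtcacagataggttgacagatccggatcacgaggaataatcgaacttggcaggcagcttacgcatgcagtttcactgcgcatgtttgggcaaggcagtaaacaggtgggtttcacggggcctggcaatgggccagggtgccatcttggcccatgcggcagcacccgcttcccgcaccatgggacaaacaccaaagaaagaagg
Cenpe (chr3:135212313-135212612, plus strand): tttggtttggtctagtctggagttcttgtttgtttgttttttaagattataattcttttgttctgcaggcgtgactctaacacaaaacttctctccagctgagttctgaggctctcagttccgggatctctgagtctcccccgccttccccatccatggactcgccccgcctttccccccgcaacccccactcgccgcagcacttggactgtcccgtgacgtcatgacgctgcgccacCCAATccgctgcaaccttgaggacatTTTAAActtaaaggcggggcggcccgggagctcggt
Cenpi (chrX:134307834-134308133, plus strand): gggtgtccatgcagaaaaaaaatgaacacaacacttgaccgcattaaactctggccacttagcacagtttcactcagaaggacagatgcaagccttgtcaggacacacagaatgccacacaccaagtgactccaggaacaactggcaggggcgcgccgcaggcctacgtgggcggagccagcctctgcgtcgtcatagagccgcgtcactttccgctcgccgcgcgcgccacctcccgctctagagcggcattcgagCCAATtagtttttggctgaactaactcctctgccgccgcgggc
Zwint (chr10:72654596-72654895, plus strand): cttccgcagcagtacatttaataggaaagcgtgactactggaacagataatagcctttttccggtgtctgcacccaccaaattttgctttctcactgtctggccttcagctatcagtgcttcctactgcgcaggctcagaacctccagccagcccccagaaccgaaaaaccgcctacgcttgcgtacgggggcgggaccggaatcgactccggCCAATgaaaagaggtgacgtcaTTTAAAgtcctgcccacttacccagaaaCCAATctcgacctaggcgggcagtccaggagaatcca
Cenpb (chr2:131180018-131180317, minus strand): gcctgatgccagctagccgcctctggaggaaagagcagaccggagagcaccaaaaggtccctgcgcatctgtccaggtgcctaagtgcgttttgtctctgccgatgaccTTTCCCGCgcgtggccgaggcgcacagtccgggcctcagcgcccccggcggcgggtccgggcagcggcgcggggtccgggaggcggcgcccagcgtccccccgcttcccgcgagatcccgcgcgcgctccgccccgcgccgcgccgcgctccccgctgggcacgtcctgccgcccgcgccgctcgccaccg

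In the Bub1 window CCAAT letters ended 64 and 38 bases before the start, and TTCGAA lay 15 to 20 bases into the transcript. Cenpe held CCAAT 12 to 8 bases before the start and TTTAAA 15 to 20 bases after it. Sgo2a (the upstream of its 2 windows) and Cenpi held a CCAAT and none of the CHR-like letters. Zwint held TTTAAA 15 to 10 bases before the start between 2 CCAAT matches. Cenpb held TTTCCCGC and neither of the other kinds. Of the 42 genes 38 had a window, 43 windows in all. A CHR-like run was present in 25 of these windows (58.1%), against 28.8% of all 32851 windows in the table and 21.5% of the windows of tested genes. CCAAT was present in 30 windows (69.8%), against 37.4% of all windows. E2F-like letters were present in 4 windows (9.3%), those of Cenpb, Cenpl, Cenpm and Dsn1. Their share was 1.56% of all windows and 2.59% of the windows of tested genes. In the last 100 bases, a span chosen after the first counts were seen, CHR-like letters were in 44.2% of the members' windows and 8.62% of all windows, and CCAAT in 44.2% and 13.6%. These matches describe letters and no binding was measured.

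Values below are probe set intensities, and changes are on the log2(intensity + 16) scale with the standard error of the limma fit and 6 tumours per group. Each gene was read from its probe set with the highest mean, and 41 of the 42 passed the filter on low values. Ska3, a subunit of the SKA complex, did not: its intensity had a median of 20.9 in vehicle, 15.9 in NRAS-off and 29.1 in MEK inhibitor tumours, and it was not tested. A gene is said to rise or fall where its limma adjusted p over all 14989 tested genes was under 0.05.

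**Figure D1:**
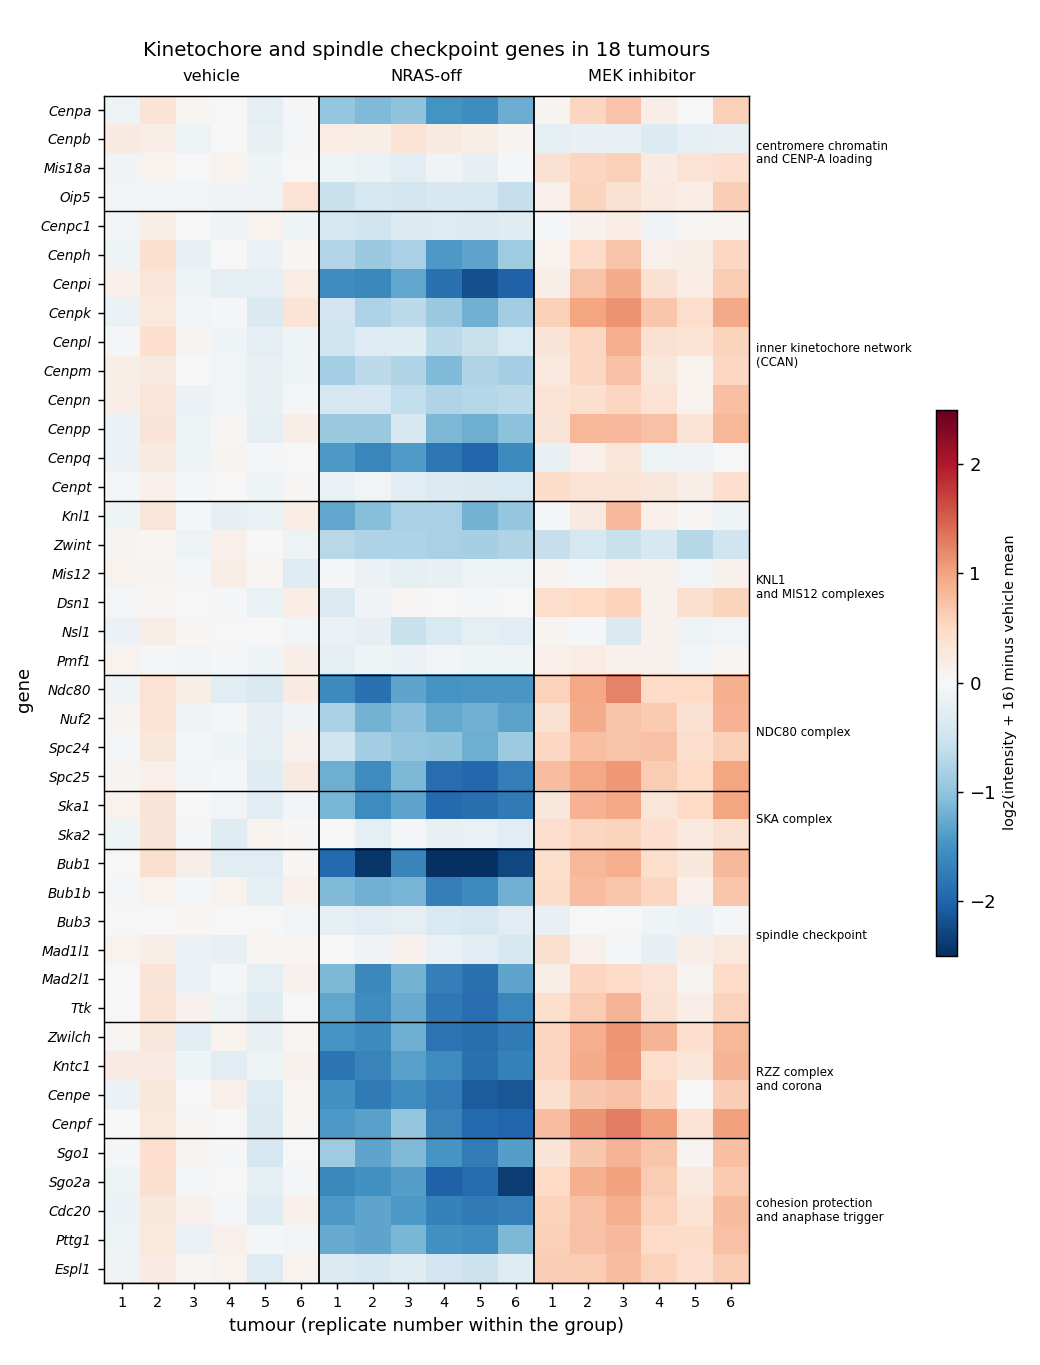
Each cell is the log2(intensity + 16) of 1 gene (rows, by role) in 1 of 18 tumours (columns, by group), minus the gene's vehicle mean; colours are cut off at changes of 2.5 either way. Most rows are blue in the 6 NRAS-off and red in the 6 MEK inhibitor tumours, while Zwint is blue in both and Cenpb turns the other way.

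The arms moved these genes in opposite directions from vehicle. In NRAS-off tumours 35 of 41 tested members fell, 1 rose and 5 did not pass, with a median change of −1.02. Of all tested genes 59.3% passed in that comparison, 27.5% lower and 31.8% higher, with a median change of 0.00. In MEK inhibitor tumours 31 members rose, 2 fell and 8 did not pass, with a median of 0.49. Of all tested genes 45.2% passed there, 24.3% higher and 20.9% lower, with a median of 0.01. Between the treated groups 40 members were lower in NRAS-off and 1 was higher, with a median of −1.57. Of all tested genes 47% passed there, 22.7% lower and 24.3% higher. All 6 tumours of the NRAS-off group lay below all 6 vehicle tumours for 31 members and above them for none, where 18.4% and 20.8% of all genes did so. All 6 MEK inhibitor tumours lay above all vehicle tumours for 13 members and below them for 1, where 12.8% and 12.7% of all genes did so. Every pair of these comparisons shares a group of tumours, so the comparisons are given side by side and not as independent evidence.

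Per tumour, the mean over the 41 members was lower than the vehicle mean by 0.79 to 1.16 in NRAS-off and higher by 0.18 to 0.62 in MEK inhibitor tumours. Vehicle tumours themselves ranged from −0.18 to 0.23. The NRAS-off tumours were thus all below the vehicle range, while MEK inhibitor replicate 5 (0.18) lay below vehicle replicate 2 (0.23). The median coefficient of variation of a member's intensity within a group was 14.0% in vehicle and 16.4% in MEK inhibitor tumours, with NRAS-off between them. Bub3 varied least in vehicle tumours (2.57%) and Bub1 most in NRAS-off tumours (39.8%).

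The treatments and the make-up of the tumours were read on the same arrays. The ERK phosphatase gene Dusp6 fell by 2.92 ± 0.14 in NRAS-off and by 1.79 ± 0.14 in MEK inhibitor tumours, and the proliferation marker Mki67 fell by 1.51 ± 0.13 and rose by 0.97 ± 0.13. Top2a, the mitotic topoisomerase gene, fell by 2.10 ± 0.15 and rose by 0.76 ± 0.15. Mouse Nras fell by 0.28 ± 0.05 and 0.23 ± 0.05, which does not show whether the transgene was off. Of 9 melanocytic markers Tyr, Tyrp1 and Oca2, which define pigment synthesis, were below the filter. Of the other 6, 4 rose in NRAS-off and 2 in MEK inhibitor tumours, and the summed intensity was 9108 to 11194 in vehicle, 9709 to 13078 in NRAS-off and 12465 to 17754 in MEK inhibitor tumours. All 10 macrophage markers rose in NRAS-off tumours and 8 of 10 fell under the inhibitor, with sums of 23221 to 38156 in vehicle, 62295 to 77625 in NRAS-off and 10981 to 26043 in MEK inhibitor tumours. Of 10 fibroblast markers 8 rose and 2 fell (Pdgfra by 0.36 and Thy1 by 0.37) in NRAS-off tumours, and 6 rose and 1 fell (Pdgfra by 0.70) under the inhibitor, with sums of 81905 to 98751, 182763 to 214170 and 123792 to 130119. All 8 skeletal muscle markers rose in both (2568 to 14588, 28356 to 42852 and 16607 to 39381), and all 8 endothelial markers rose in NRAS-off tumours (716 to 1328, 1820 to 2632 and 781 to 1237). Sums of the 5 NK and lymphoid markers with a probe set were 885 to 1125, 1865 to 4325 and 497 to 800. Keratinocyte markers did not pass, and NRAS-off replicate 2 stood apart with a sum of 33050 against a group median of 676. No marker was at 0. Without that tumour the count of members that fell was again 35. The part of these other cells in the members' changes was not tested. In bulk tumours fewer cycling cells and less RNA per cell cannot be told apart.

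**Figure D2:**
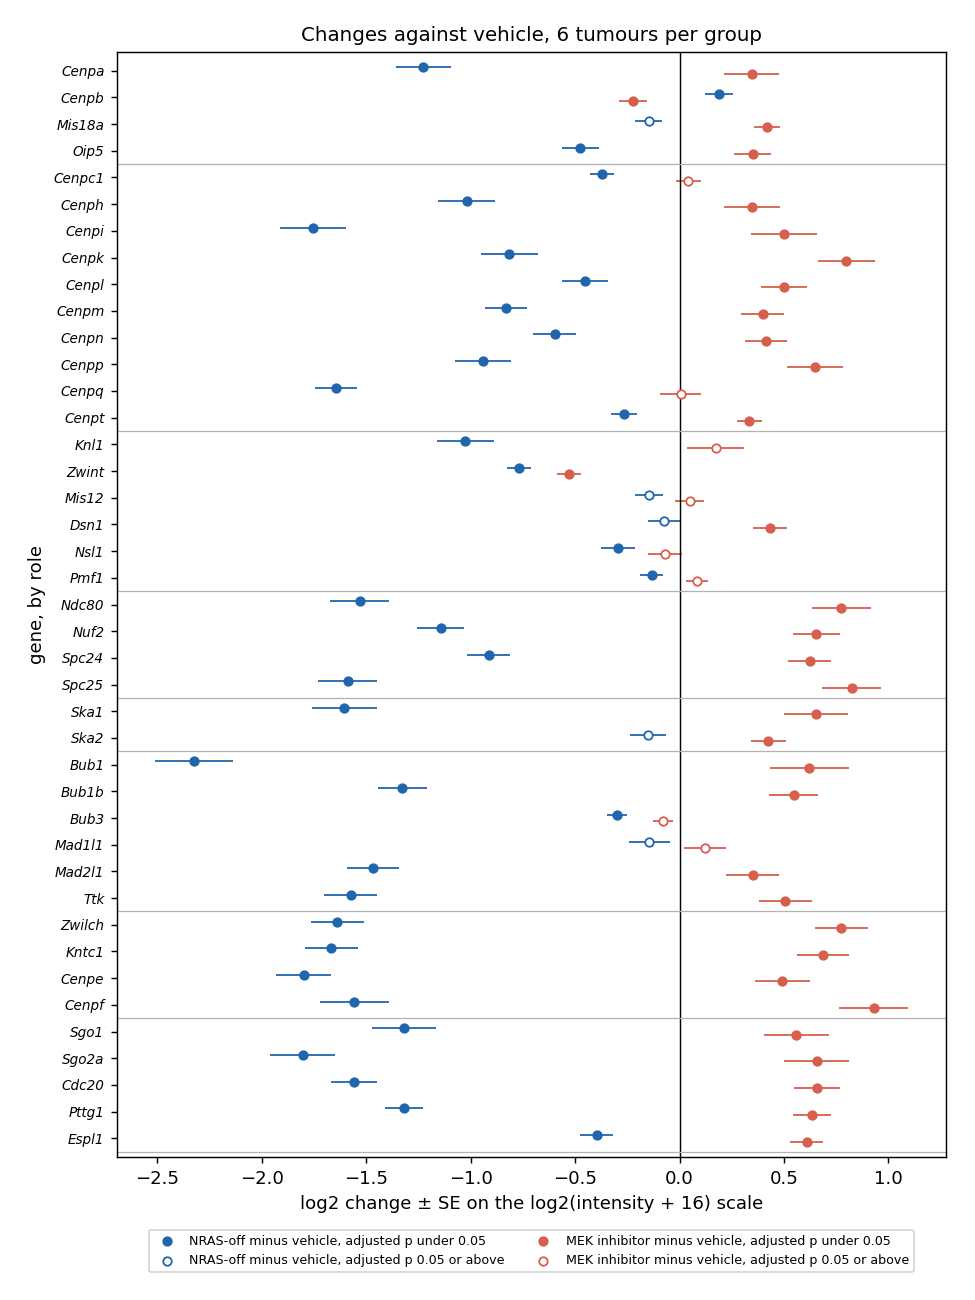
Points are log2 changes against vehicle (horizontal axis, bars ± SE, 6 tumours per group) for the 41 tested genes by role, blue for NRAS-off and red for MEK inhibitor; open points did not pass. On the probe set read for each gene, the largest fall is Bub1 at −2.32 and the largest rise under the inhibitor is Cenpf at 0.93.

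At the centromere itself the members did not move as a block. Of 4 genes 2 fell in NRAS-off tumours, 1 rose and 1 did not pass. Cenpa, the centromeric histone, had an intensity of 711 at the lowest, 819 at the median and 1035 at the highest in vehicle tumours. It was 273, 360 and 419 in NRAS-off and 823, 1075 and 1361 in MEK inhibitor tumours. NRAS-off tumours were all below vehicle (−1.23 ± 0.13, adjusted p = 2.08e-07), and MEK inhibitor tumours overlapped vehicle at a change of 0.35 ± 0.13 (adjusted p = 0.0413). The inhibitor call for Cenpa ended without any 1 of vehicle replicates 1, 3, 4, 5 and 6 or MEK inhibitor replicates 2, 3 and 6 (0.27 to 0.36, limma adjusted p = 0.0529 to 0.105). Fitted as a probe set over all tumours, the other tested probe set of Cenpa rose by 0.48 ± 0.11 (limma adjusted p = 0.00208).

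Oip5, which encodes a subunit of the MIS18 complex that licenses CENP-A loading, was 58.6, 59.4 and 86.0 in vehicle, 36.8, 42.2 and 44.2 in NRAS-off and 70.8, 82.2 and 105 in MEK inhibitor tumours. It fell by 0.47 ± 0.09 and rose by 0.35 ± 0.09. Its partner Mis18a differed by −0.15 ± 0.06 in NRAS-off tumours (adjusted p = 0.0531) and rose by 0.42 ± 0.06 under the inhibitor. The NRAS-off difference of Mis18a passed in 11 of the alternatives, among them leaving out vehicle replicate 1 or 5, NRAS-off replicate 6, or MEK inhibitor replicate 3 or 4 (−0.17 to −0.15).

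Cenpb, whose protein binds a short box in centromeric satellite DNA, went the other way. Its intensity was 335, 374 and 449 in vehicle, 404, 435 and 490 in NRAS-off and 300, 329 and 335 in MEK inhibitor tumours. It rose by 0.19 ± 0.07 (adjusted p = 0.0190) and fell by 0.22 ± 0.07 (adjusted p = 0.00919), and each arm overlapped vehicle. The treated groups did not overlap each other (NRAS-off higher by 0.41 ± 0.07, adjusted p = 3.79e-05). The rise did not pass with median centring or the mean of all probe sets (0.16 and 0.04), nor without vehicle replicate 5 or NRAS-off replicate 3 (0.15 and 0.16). It was the only tested member higher in NRAS-off than in MEK inhibitor tumours.

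All 10 genes of the inner network fell in NRAS-off tumours, by 0.26 (Cenpt) to 1.75 (Cenpi), with a median of −0.82. Under the inhibitor 8 rose and 2 did not pass, with a median of 0.41. Cenpi, needed to recruit other members of the network, was 178, 215 and 268 in vehicle and 34.5, 53.3 and 78.2 in NRAS-off tumours. It was 241, 314 and 423 under the inhibitor, which overlapped vehicle (0.50 ± 0.16, adjusted p = 0.0136). Cenpq fell as deeply and did not rise: it was 624, 688 and 815 in vehicle, 164, 216 and 249 in NRAS-off and 612, 676 and 859 in MEK inhibitor tumours. Its changes were −1.64 ± 0.10 (adjusted p = 8.16e-11) and 0.01 ± 0.10 (adjusted p = 0.971).

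Cenph, a partner of CENP-I and CENP-K, was 88.7, 97.9 and 141 in vehicle, 28.1, 47.2 and 55.0 in NRAS-off and 111, 133 and 177 in MEK inhibitor tumours. It fell by 1.02 ± 0.14 and rose by 0.35 ± 0.14 (adjusted p = 0.0436). That rise did not pass without any 1 of vehicle replicates 1, 3, 4, 5 and 6 or MEK inhibitor replicates 2, 3 and 6 (0.28 to 0.36). Cenpk had the largest rise of the network, 0.80 ± 0.14, with all MEK inhibitor tumours (230 to 378) above vehicle (125 to 212). Cenpc1, which encodes the scaffold CENP-C and joins CENP-A to the outer kinetochore, fell by 0.37 ± 0.06 and differed by 0.04 ± 0.06 under the inhibitor (adjusted p = 0.589). Cenpt, the other arm that holds NDC80, fell by 0.26 ± 0.06 and rose by 0.33 ± 0.06, and Cenpl fell by 0.45 ± 0.11 and rose by 0.50 ± 0.11. Cenpm, Cenpn and Cenpp fell by 0.83, 0.60 and 0.94 and rose by 0.40, 0.41 and 0.65.

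Of 6 genes of the KNL1 and MIS12 complexes 4 fell in NRAS-off tumours, and under the inhibitor 1 rose, 1 fell and 4 did not pass. The medians were −0.22 and 0.07. Knl1, the platform on which BUB proteins dock, was 127, 141 and 185 in vehicle, 50.1, 64.6 and 77.5 in NRAS-off and 135, 156 and 272 in MEK inhibitor tumours. It fell by 1.03 ± 0.14 (adjusted p = 2.59e-06), and MEK inhibitor tumours overlapped vehicle (0.17 ± 0.14, adjusted p = 0.329). Mis12 was 281, 371 and 401 in vehicle, 300, 320 and 343 in NRAS-off and 337, 378 and 389 in MEK inhibitor tumours. It passed in neither comparison with vehicle (−0.15 ± 0.07, adjusted p = 0.0759, and 0.05 ± 0.07, adjusted p = 0.604). Without vehicle replicate 6, the lowest vehicle tumour, the first difference passed (−0.21), as it did with median centring and with quantile normalization (−0.18 in each).

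The 3 partners of Mis12 in its complex differed among themselves. Dsn1 was 114, 127 and 149 in vehicle, 97.8, 127 and 133 in NRAS-off and 141, 185 and 201 in MEK inhibitor tumours, so that the vehicle and NRAS-off ranges overlapped. It differed by −0.07 ± 0.08 (adjusted p = 0.46) and rose by 0.43 ± 0.08 (adjusted p = 0.000231). Nsl1 was 92.2, 105 and 120 in vehicle, 66.4, 85.6 and 93.4 in NRAS-off and 77.7, 100 and 115 in MEK inhibitor tumours. It fell by 0.29 ± 0.08 and differed by −0.07 ± 0.08 (adjusted p = 0.524). Its other probe set rose by 0.72 under the inhibitor, from a mean of 41.2 to 79.8. Pmf1 fell by 0.13 ± 0.05 (adjusted p = 0.0401) and differed by 0.08 ± 0.05 (adjusted p = 0.229). The fall of Pmf1 did not pass with its second probe set (−0.04), the mean of both (−0.09), a trended robust prior (adjusted p = 0.055) or the replicate block (adjusted p = 0.0593), nor without any 1 of vehicle replicates 1 and 6 or NRAS-off replicates 1, 3, 5 and 6 (−0.14 to −0.10).

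Zwint, which binds KNL1 and helps to bring the RZZ complex to kinetochores, fell in both arms. Its intensity was 1590, 1781 and 1907 in vehicle, 970, 1021 and 1080 in NRAS-off and 1065, 1213 and 1312 in MEK inhibitor tumours. Neither treated group overlapped vehicle. It fell by 0.77 ± 0.06 (adjusted p = 1.32e-09) and by 0.53 ± 0.06 (adjusted p = 4.84e-07), and the treated groups overlapped each other (−0.24 ± 0.06, adjusted p = 0.00185). All 6 tested probe sets of Zwint, of 7, fell in both arms. Fitted as probe sets, they fell by 0.77 to 1.95 in NRAS-off and by 0.53 to 1.15 in MEK inhibitor tumours. The probe set read for the gene gave the smallest fall in each. It was the only member that fell in both comparisons with vehicle.

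**Figure D3:**
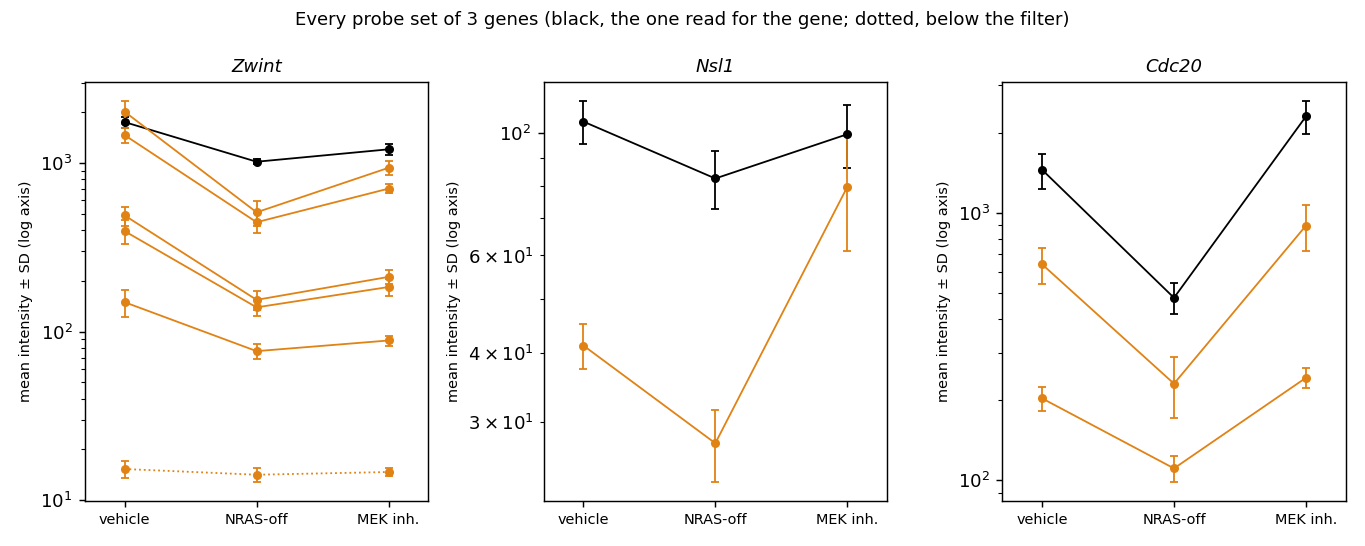
Mean intensity ± SD of 6 tumours (log axis) for every probe set of 3 genes in the 3 groups; black is the probe set read for the gene and dotted lines are below the filter. The 6 tested probe sets of Zwint are lower than vehicle in both arms, the 2 of Nsl1 part under the inhibitor, and the 3 of Cdc20 run alike.

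The NDC80 complex, the microtubule-binding end of the kinetochore, moved as a unit. All 4 genes fell in NRAS-off tumours (median −1.34) and all 4 rose under the inhibitor (median 0.71), and in every one the 3 groups did not overlap. Spc25 was 425, 534 and 628 in vehicle, 124, 159 and 235 in NRAS-off and 755, 989 and 1153 in MEK inhibitor tumours. It fell by 1.59 ± 0.14 (adjusted p = 1.63e-08) and rose by 0.82 ± 0.14 (adjusted p = 0.000101). Ndc80 was 132, 179 and 229 in vehicle, 36.3, 52.6 and 60.1 in NRAS-off and 249, 303 and 434 in MEK inhibitor tumours. It fell by 1.53 ± 0.14 and rose by 0.77 ± 0.14. Nuf2, its coiled-coil partner, was 126, 142 and 191 in vehicle, 48.6, 55.6 and 78.0 in NRAS-off and 197, 249 and 297 in MEK inhibitor tumours (−1.14 ± 0.11 and 0.65 ± 0.11). Spc24, which pairs with SPC25 at the inner end, changed by −0.91 ± 0.10 and 0.62 ± 0.10.

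In the SKA complex, Ska1 was 137, 166 and 216 in vehicle, 32.2, 42.5 and 68.1 in NRAS-off and 209, 285 and 352 in MEK inhibitor tumours. All NRAS-off tumours were below vehicle (−1.60 ± 0.15, adjusted p = 4.66e-08), and MEK inhibitor tumours overlapped vehicle at their lower end (0.65 ± 0.15, adjusted p = 0.0019). Ska2 was 311, 386 and 486 in vehicle, 316, 339 and 388 in NRAS-off and 457, 521 and 573 in MEK inhibitor tumours. It differed by −0.15 ± 0.08 (adjusted p = 0.134) and rose by 0.42 ± 0.08 (adjusted p = 0.000429). Without vehicle replicate 4 the NRAS-off difference of Ska2 passed (−0.21).

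The checkpoint held the member with the largest fall and members with small changes. Of 6 genes 5 fell in NRAS-off tumours (median −1.40), and under the inhibitor 4 rose and 2 did not pass (median 0.43). Bub1, a kinase that starts checkpoint assembly and marks centromeric histone H2A, was 402, 499 and 653 in vehicle, 45.4, 83.9 and 147 in NRAS-off and 601, 780 and 946 in MEK inhibitor tumours. It was 5.01-fold lower than vehicle on the fitted scale in NRAS-off tumours (−2.32 ± 0.19, adjusted p = 4.5e-09). MEK inhibitor tumours overlapped the highest vehicle tumour (0.62 ± 0.19, adjusted p = 0.0113). Ttk, which encodes the upstream checkpoint kinase MPS1, was 143, 178 and 233 in vehicle, 36.4, 48.6 and 65.7 in NRAS-off and 203, 263 and 335 in MEK inhibitor tumours. It fell by 1.57 ± 0.13 and rose by 0.51 ± 0.13.

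Mad2l1, the CDC20 inhibitor, was 865, 1011 and 1275 in vehicle, 271, 362 and 461 in NRAS-off and 1080, 1372 and 1492 in MEK inhibitor tumours. It fell by 1.47 ± 0.13 and rose by 0.35 ± 0.13 (adjusted p = 0.0288). The rise did not pass without any 1 of vehicle replicates 3 and 5 or MEK inhibitor replicates 2, 3 and 6 (0.30 to 0.33). Bub1b, which encodes BUBR1 of the mitotic checkpoint complex, fell by 1.33 ± 0.12 and rose by 0.55 ± 0.12. Mad1l1, which carries MAD2 to the kinetochore, was 47.9, 59.7 and 65.5 in vehicle, 39.0, 51.0 and 62.1 in NRAS-off and 47.5, 64.6 and 80.7 in MEK inhibitor tumours. Its groups overlapped and it passed in neither comparison with vehicle (−0.14 ± 0.10, adjusted p = 0.228, and 0.12 ± 0.10, adjusted p = 0.359).

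Bub3, the WD-repeat partner of BUB1 and BUBR1, is given because it varied least among vehicle tumours, a choice made after its values were seen. It was 4351, 4580 and 4699 in vehicle, 3372, 3781 and 3899 in NRAS-off and 3976, 4323 and 4595 in MEK inhibitor tumours. NRAS-off tumours were all below vehicle, by a small step (−0.30 ± 0.05, adjusted p = 2.82e-05), and MEK inhibitor tumours overlapped vehicle (−0.08 ± 0.05, adjusted p = 0.211). On the probe sets read for these 2 genes of the same checkpoint complexes, Bub1 thus changed by −2.32 and Bub3 by −0.30. The other tested probe set of Bub1 had a vehicle mean of 25.1. Fitted as a probe set, it fell by 0.25 and differed by 0.15 under the inhibitor (limma adjusted p = 0.14). With the most variable probe set of Bub3, which had a vehicle mean of 65.0, the fall did not pass (−0.21). The remaining tested probe sets of Bub3 had vehicle means of 387 and 31.8. Fitted as probe sets, they differed by −0.24 (limma adjusted p = 0.00459) and −0.06 (limma adjusted p = 0.572) in NRAS-off tumours.

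**Figure D4:**
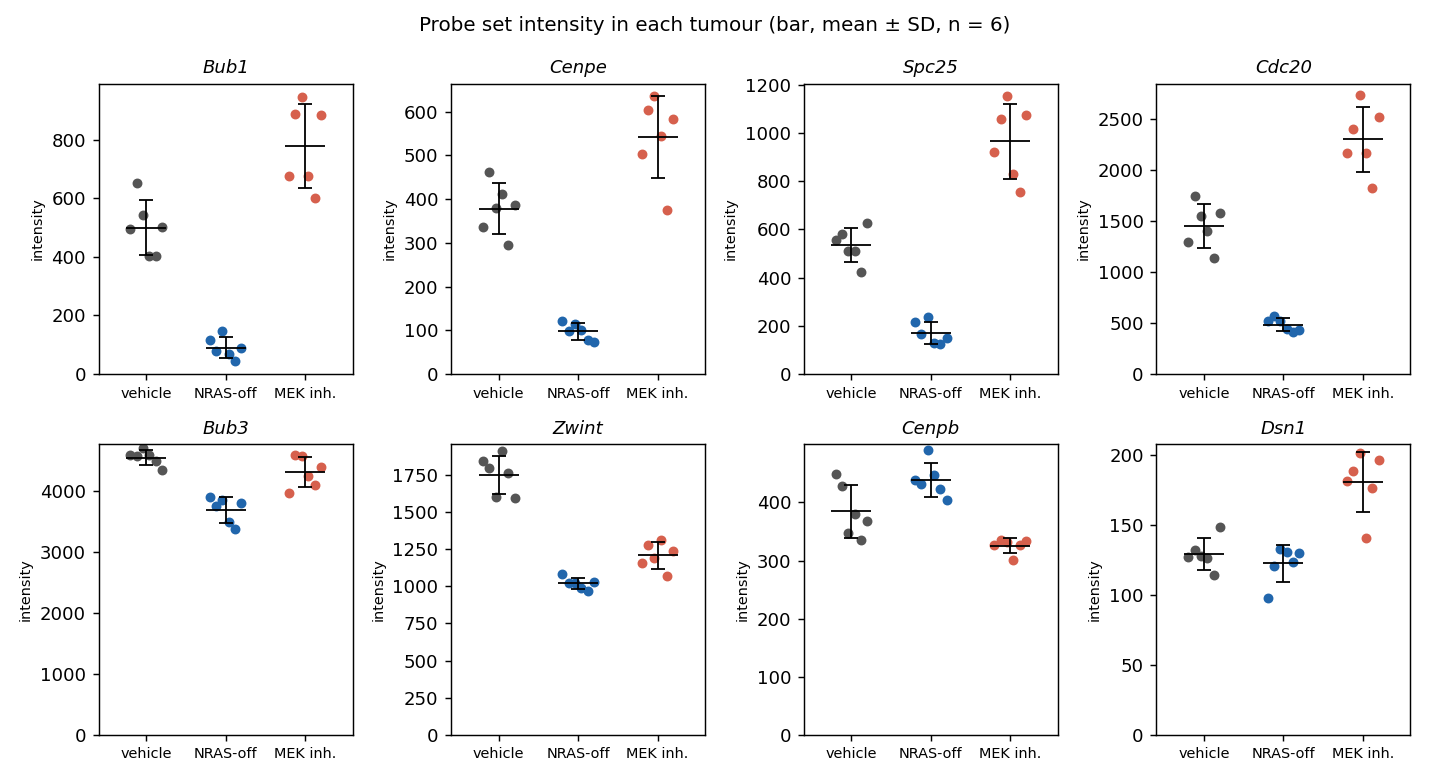
Each point is the probe set intensity of 1 tumour (linear axis from 0), with the mean ± SD of 6 tumours per group, for 8 members. Bub1, Cenpe, Spc25 and Cdc20 are low in NRAS-off and high in MEK inhibitor tumours, Bub3 steps down slightly, Zwint is low in both arms, Cenpb is lowest under the inhibitor, and Dsn1 is higher under the inhibitor.

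The RZZ complex and the fibrous corona, the outermost layer that grows on unattached kinetochores, had 4 members. All fell in NRAS-off tumours, by 1.56 to 1.80, and all rose under the inhibitor, by 0.49 to 0.93. Cenpe, a kinesin that carries chromosomes to the spindle middle, was 295, 382 and 462 in vehicle, 73.1, 100.2 and 121 in NRAS-off and 374, 564 and 636 in MEK inhibitor tumours (−1.80 ± 0.13, adjusted p = 1.19e-09, and 0.49 ± 0.13, adjusted p = 0.00495). MEK inhibitor replicate 5 was the tumour inside the vehicle range. Kntc1, the ROD subunit, was 231, 281 and 325 in vehicle, 65.0, 76.4 and 99.6 in NRAS-off and 351, 467 and 609 in MEK inhibitor tumours, with no overlap between groups. Zwilch, another RZZ subunit, was 312, 389 and 463, then 90.4, 107 and 153, then 507, 686 and 831, again with no overlap. Their changes were −1.67 ± 0.13 and 0.69 ± 0.13 for Kntc1 and −1.64 ± 0.13 and 0.77 ± 0.13 for Zwilch. Zwint, which links RZZ to KNL1, fell under the inhibitor where both of these rose. Cenpf, a large corona protein, changed by −1.56 ± 0.16 and 0.93 ± 0.16, the largest rise of any member on the probe sets read. Fitted as probe sets, its other tested ones changed less. That with a vehicle mean of 66.8 changed by −0.28 and 0.25. That with a vehicle mean of 28.0 changed by −0.27 and 0.35 (limma adjusted p = 0.0962 and 0.0482).

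All 5 genes of cohesion protection and the anaphase trigger fell in NRAS-off (median −1.32) and rose in MEK inhibitor tumours (median 0.63). Sgo2a, a shugoshin that shields centromeric cohesin, was 403, 472 and 638 in vehicle, 79.2, 130 and 174 in NRAS-off and 574, 761 and 972 in MEK inhibitor tumours (−1.80 ± 0.16, adjusted p = 1.07e-08, and 0.66 ± 0.16, adjusted p = 0.00189). Sgo1, the mitotic shugoshin, was 170 at the lowest, 229.6 at the median and 317 at the highest in vehicle, 57.4, 81.3 and 119 in NRAS-off and 243, 382 and 430.4 in MEK inhibitor tumours. NRAS-off tumours were all below vehicle (−1.32 ± 0.15), and MEK inhibitor tumours overlapped vehicle (0.56 ± 0.15). Cdc20 was 1139, 1476 and 1747 in vehicle, 411, 480 and 568 in NRAS-off and 1818, 2281 and 2727 in MEK inhibitor tumours, with no overlap between groups. It fell by 1.56 ± 0.11 and rose by 0.66 ± 0.11. Its probe set, like those read for Mis18a and Pmf1, carries the array maker's suffix for possible hybridisation with other transcripts. The other 2 probe sets of Cdc20 moved the same way.

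Pttg1, securin, was 1442, 1578 and 1947 in vehicle, 542, 656 and 737 in NRAS-off and 2243, 2593 and 2862 in MEK inhibitor tumours, also without overlap (−1.32 ± 0.09 and 0.63 ± 0.09). Espl1, the separase that securin holds inactive, was 212, 280 and 315 in vehicle, 180, 205 and 216 in NRAS-off and 365, 423 and 474 in MEK inhibitor tumours. It fell by 0.40 ± 0.08 (adjusted p = 0.000256) and rose by 0.61 ± 0.08 (adjusted p = 4.47e-06), and the NRAS-off tumours overlapped vehicle. On the probe sets read for the genes, securin thus changed by −1.32 and separase by −0.40 in NRAS-off tumours. Under the inhibitor both rose by about the same, 0.63 and 0.61. Fitted as probe sets, the other tested ones of Pttg1 differed in size. That with a vehicle mean of 117 fell by 0.45 and rose by 0.44. That with a vehicle mean of 649 fell by 1.38 and rose by 0.47.

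Side by side, 28 of the 41 tested members fell in NRAS-off and rose in MEK inhibitor tumours. In 25 of these the fall was larger in size than the rise, and in Cenpl, Cenpt and Espl1 the rise was larger. A further 6 (Cenpc1, Cenpq, Knl1, Nsl1, Pmf1 and Bub3) fell in NRAS-off and did not pass under the inhibitor, and 3 (Mis18a, Dsn1 and Ska2) did not pass in NRAS-off and rose under the inhibitor. Mis12 and Mad1l1 passed in neither, Zwint fell in both, and Cenpb rose and fell. In 10 members all 3 pairs of groups were without overlap: Cenpk, the 4 NDC80 genes, Zwilch, Kntc1, Cenpf, Cdc20 and Pttg1. Of the 25 with opposite changes that had a promoter window, 17 held CHR-like letters and 19 held CCAAT. Of the other 12 tested members with a window, 6 and 7 did. These counts are per gene, in any of its windows, whereas the shares given earlier are per window. A share over all genes was not counted per gene, and the difference between these sets of members was not tested.

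The direct comparison of the treated groups asks how far loss of NRAS and MEK inhibition leave these genes apart. On the probe sets read, the largest difference was for Bub1, 7.7-fold lower in NRAS-off on the fitted scale (−2.94 ± 0.19, adjusted p = 5.5e-10). Cenpf (−2.49 ± 0.16), Sgo2a (−2.46 ± 0.16), Spc25 (−2.41 ± 0.14) and Zwilch (−2.41 ± 0.13) followed. Fitted as probe sets, the other tested ones differed by −0.40 for Bub1, −0.53 and −0.62 for Cenpf and −0.32 for Spc25. Tumours of the treated groups did not overlap for 36 members lower in NRAS-off, where 13.4% of all genes did so, and for 1 higher, where 15% did. On the probe set read for each gene, the smallest differences were Mis12 (−0.19 ± 0.07, adjusted p = 0.0253), Pmf1 (−0.22 ± 0.05), Bub3 (−0.22 ± 0.05), Nsl1 (−0.22 ± 0.08) and Zwint (−0.24 ± 0.06). Of these the Bub3 call ended with its most variable probe set (−0.21, adjusted p = 0.102), and the Mis12 call ended without NRAS-off replicate 3 or MEK inhibitor replicate 3 (−0.18 in each). The Nsl1 call was lost when NRAS-off replicate 3 or 4, or MEK inhibitor replicate 1, 2 or 4, was left out (−0.22 to −0.17). Fitted as probe sets, the other probe set of Nsl1 differed by −1.12 between the treated groups. The other tested probe sets of Zwint differed by −0.87 to −0.18. The Mad1l1 call (−0.26 ± 0.10, adjusted p = 0.0365) was lost when NRAS-off replicate 4, 5 or 6, or MEK inhibitor replicate 1, 2, 5 or 6, was left out (−0.26 to −0.21), and when only the 2 groups compared were fitted (adjusted p = 0.0563).

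The members' other probe sets were fitted as well. Of 81 probe sets 70 passed the filter. When all 27656 probe sets of named genes that passed were fitted, 58 member probe sets fell and 1 rose in NRAS-off tumours, where 56.4% of probe sets passed in either direction. Under the inhibitor 47 rose and 7 fell, where 42.9% passed. Of 19 members with several tested probe sets, none had probe sets called in opposite directions in any comparison. All tested probe sets were called one way in 13 of the 19 in NRAS-off tumours and in 12 under the inhibitor. Between the treated groups this held for 17. In the remaining members at least 1 probe set did not pass. The second probe set of Spc25, with a vehicle mean of 41.8, fell by 0.29 and differed by 0.03 under the inhibitor, where the first fell by 1.59 and rose by 0.82.

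Genes that work beside the kinetochore were listed from its biology. Of all tested genes 27.5% fell and 31.8% rose in NRAS-off tumours, and 20.9% fell and 24.3% rose under the inhibitor. Of 10 tested genes of the chromosomal passenger complex and the mitotic kinases all fell in NRAS-off (median −1.67) and 9 rose in MEK inhibitor tumours (median 0.61). Cdca8, the borealin subunit, changed by −2.10 ± 0.15 and 0.67 ± 0.15, Birc5, survivin, by −1.88 ± 0.16 and 0.69 ± 0.16, and Aurkb by −1.80 ± 0.13 and 0.58 ± 0.13. Aurka fell with the others and did not pass under the inhibitor. Of 6 other tested centromere genes 4 fell in NRAS-off and 2 rose under the inhibitor, with Cenpw at −1.38 ± 0.12 and 0.11 ± 0.12 (adjusted p = 0.497). Of 7 other tested checkpoint factors 5 fell in NRAS-off tumours and 1 rose under the inhibitor. Trip13, the ATPase that takes MAD2 out of its active form, fell by 1.59 ± 0.15 and differed by 0.19 ± 0.15 (adjusted p = 0.324), and Spdl1, the dynein adaptor at the corona, fell by 1.57 ± 0.14 and differed by 0.14 ± 0.14 (adjusted p = 0.452).

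Of 17 genes of the anaphase-promoting complex and its regulators 5 rose and 5 fell in NRAS-off tumours (29.4% each, median 0.03). These shares were near the 31.8% and 27.5% of all tested genes. Under the inhibitor 8 rose and 1 fell (47.1% and 5.88%, median 0.08), against 24.3% and 20.9% of all tested genes. The falls in NRAS-off tumours included the E2 enzyme gene Ube2c (−2.04 ± 0.16), the inhibitor gene Fbxo5 (−0.91 ± 0.12) and the core subunit gene Cdc27 (−0.60 ± 0.06). Of 13 cohesin genes 6 fell and 4 rose in NRAS-off tumours (46.2% and 30.8%, median −0.12). Under the inhibitor 8 of them rose and 1 fell (61.5% and 7.69%, median 0.25). Cdca5, sororin, fell by 1.75 ± 0.12, and Esco2, the S phase cohesin acetyltransferase, fell by 1.20 ± 0.12 and rose by 1.15 ± 0.12. The cohesin loader gene Mau2 rose in both arms (0.48 ± 0.07 and 0.30 ± 0.07).

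Of 12 genes of the MuvB core, its pocket protein partners and FOXM1, factors known to act at CHR promoters, 7 fell and 3 rose in NRAS-off tumours (58.3% and 25%, median −0.34). In MEK inhibitor tumours 5 of them rose and 1 fell (41.7% and 8.33%, median 0.19). Rbl1, the pocket protein p107, changed by −0.74 ± 0.14 and 0.51 ± 0.14. Rbl2, the pocket protein p130 found in resting cells, rose in both arms (0.50 ± 0.07 and 0.41 ± 0.07). E2f5 fell in both (0.72 ± 0.07 and 0.58 ± 0.07), and Foxm1, given with them after its values were seen, changed by −0.46 ± 0.09 and 0.24 ± 0.09.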

How the data were processed

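RNA of 18 tumours was read on one-colour Affymetrix arrays from pieces of about 50 mg and 10 ug of labelled RNA, per the labels' protocols. The deposited values are 1 intensity per probe set and tumour. MAS5 and RMA are both named in the submitters' processing notes; which of them gave the deposited intensities is not given in the sources used here. They were read as linear because array medians lay between 72.3 and 78.5 and none was at 0 or below. No batch is given, and the number of arrays limits the precision. Symbols came from the platform annotation, updated through RefSeq. Each gene was read from its probe set with the highest mean, as log2(intensity + 16), and genes with a mean under the lower quartile of probe sets (a log2 value of 5.31) were left out. The 3 groups were fitted together in limma 3.58.1 (R 4.3.3), with Benjamini-Hochberg adjustment over 14989 genes. The fit was tested on simulated data. Full values were given for up to 3 members per role with the largest NRAS-off change, those called against their role's direction and those passing in neither arm; full values of Dsn1, Bub3, Pttg1 and Espl1 were added after they were seen. The members, lists and rule were chosen with earlier results of these data known. Promoters came from RefSeq GRCm38.p6. Alternatives were other filters, probe set choices, scalings, pseudocounts and priors, only the groups compared, a replicate block and leaving out each tumour.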

Additional observations from a re-analysis of the deposited data

Results flagged for a closer look

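In 126 groups of 6 intensities (42 genes in 3 groups), 8 values lay far from the other 5, where chance gives about 1 in 20 groups. The highest in their group were Oip5 in vehicle replicate 6 (86.0 against 58.6 to 59.9), Cenph in vehicle replicate 2 (141 against 88.7 to 106), Sgo2a in vehicle replicate 2 (638 against 403 to 482), Cenpl in MEK inhibitor replicate 3 (176 against 111 to 133), Knl1 in MEK inhibitor replicate 3 (272 against 135 to 174) and Cenpp in NRAS-off replicate 3 (154 against 80.5 to 103). The lowest were Cenpb in MEK inhibitor replicate 4 (300.1 against 326 to 335) and Dsn1 in NRAS-off replicate 1 (97.8 against 120.4 to 133). Vehicle replicate 2 and MEK inhibitor replicate 3 each held 2 of these values and had the highest mean over the members in their groups (0.23 and 0.62).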

How the results depend on the processing

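Over 11 alternatives and the fits that leave out each tumour, 33 to 37 members fell in NRAS-off tumours, 28 to 32 rose under the inhibitor and 38 to 41 were lower in NRAS-off than in MEK inhibitor tumours. The member that rose in NRAS-off tumours, Cenpb, left a count of 0 with the mean of all probe sets and with median centring, and 0 to 1 when single tumours were left out. The members' median in NRAS-off minus vehicle was −0.727 with the mean of all probe sets, −1.19 with a pseudocount of 1 and −0.72 with a pseudocount of 64; between the treated arms it was −1.21 with the mean of all probe sets and −1.26 with a pseudocount of 64. A larger pseudocount shrinks changes of low genes by construction, and a smaller one enlarges them. The cause of the moves with the mean of all probe sets was not tested. Under the inhibitor, differences that had not passed turned for Cenpq (from −0.053 to 0.051 over the fits that leave out a tumour, below 0 without vehicle replicate 1, 3 or 5 or MEK inhibitor replicate 2 or 3), Mis12 (from −0.016 without vehicle replicate 6 to 0.083) and Bub3 (0.0054 with the most variable probe set). Nsl1 turned and passed with the mean of its probe sets (0.33) and the most variable one (0.72). The Cenpe rise did not pass with its most variable probe set (0.37), nor the Cenph rise without a filter or with a pseudocount of 1 (0.35 and 0.39). With the replicate block 34 members fell in NRAS-off (35 without it), 31 rose under the inhibitor and 40 were lower between the arms, and 8722, 6714 and 6926 genes passed. The block ended the Pmf1 fall. The labels do not say that numbers pair tumours. Same-numbered tumours deviated with correlations of −0.14 to 0.27, all above 0 between the treated arms (0.04 to 0.15), and in 14 of 36 cases the best match in another group had the same number, where 6 would if numbers meant nothing. The main fit took the numbers only as names of tumours and did not treat them as pairs. These correlations and matches do not settle whether they are pairs.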
